A study of Drosophila melanogaster with 5 samples.

Results

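The JAK/STAT pathway genes considered here were a list of 9 genes covering ligands, receptors, a kinase, a transcription factor and regulators of the pathway in Drosophila melanogaster. Members were the probe sets that the platform annotation maps to 1 of these genes alone. This gave 8 probe sets for 6 genes (upd2, dome, et, Stat92E, Ptp61F and Su(var)2-10), out of 13647 probe sets mapped to 1 gene and 11982 genes named in this way. The other 3 genes, hop, upd3 and Socs36E, were not analysed here.

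RNA of hemocytes, the blood cells of the fly, was measured on Affymetrix arrays in larvae of the last instar, with 1 array for each of 5 lines. The control was strain W1118. The spen array came from the line spen(GE10359), labelled as loss of function, which carries a P element in the UTR of spen. The E(spl) array came from E(spl)rvl (Bloomington stock BL199) and the Su(H) array from Su(H)l(417) (BL417), both labelled as loss of function, and the EGFR array came from stock BL1564, labelled as gain of function. The labels give no full genotype for BL1564 and do not say whether larvae of any stock were homozygous. Each array drew on pooled blood cells of 200 to 300 larvae, and the RNA was amplified before labelling. Since there was 1 array per group, there was no replicate spread and no test between groups, and higher and lower below describe these 5 arrays only. In a pooled cell sample, fewer cells of a type and less RNA per cell cannot be told apart.

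In this pathway, secreted Unpaired ligands bind the receptor Domeless, the receptor-bound kinase Hopscotch is activated, and the transcription factor Stat92E is phosphorylated and moves to the nucleus. In the larval blood system the pathway is known for its part in blood progenitors of the lymph gland and for hop gain-of-function alleles, which give melanotic tumours and many lamellocytes, the flat blood cells that wrap parasites. SOCS proteins, the phosphatase Ptp61F, the SUMO ligase Su(var)2-10 (the fly PIAS) and the short receptor et hold the pathway down.

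All 9 plasmatocyte markers lay above the highest Bacillus control probe set, a measure of background, on each of the 5 arrays, with a median log2 level of 12.73 to 13.53. That background limit ran from 4.28 (Su(H)) to 4.78 (spen) on the log2 scale. The spen probe set with signal read 9.79 in the control and 4.90 in the spen line, while Egfr lay between 3.89 and 4.41 and could not check the EGFR label. Other tissue markers differed between arrays. The log2 levels of 6 lamellocyte markers summed to 47.7 on the control array, 49.9 on spen, 56.0 on E(spl), 61.9 on Su(H) and 56.5 on EGFR. The sum over 5 salivary gland markers was 58.5 on spen against 25.4 to 34.7 elsewhere, and the sum over 3 testis markers was 29.1 on the control array against 18.1 to 24.5 elsewhere. The log2 excess of 3′ over middle probe sets, averaged over actin, eIF-4a and GAPDH, was lowest on the control array (1.57), followed by spen (1.74), EGFR (1.90) and E(spl) (2.14), and was highest on Su(H) (2.59).

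None of the 24 gene by stock differences of the 6 measured pathway genes reached 2-fold, the size used here to count a gene as higher or lower. The widest were Stat92E in E(spl), 1.83-fold higher, et in spen (1.63-fold higher) and et in EGFR (1.62-fold higher). In spen, 0 of 6 genes were higher or lower by 2-fold, where 2.7% of 8079 named genes tested were higher and 14.6% lower. In E(spl), 0 of 6 were past 2-fold either way, against 6.49% higher and 15.4% lower of 8076 genes. In Su(H) it was again 0 of 6, against 6.98% higher and 14.9% lower of 8139 genes. In EGFR it was 0 of 6, against 4.37% higher and 10.5% lower of 8017 genes. At a limit of 1.5-fold, et was higher in spen, Stat92E in E(spl), and et and Su(var)2-10 in EGFR, and none of the 6 genes was lower. The shares of all genes tested that were higher and lower at that limit were 10.3% and 21.2% in spen and 14.7% and 22.6% in E(spl). For Su(H) they were 14.8% and 24.1%, and for EGFR 12.0% and 19.7%. Genes were tested where at least 1 of both arrays reached a log2 level of 4.50, the median of all levels, and upd2 passed this filter through the control array alone. The median log2 difference over the 6 genes was -0.01 (spen), 0.00 (E(spl)), 0.17 (Su(H)) and 0.18 (EGFR). Over all genes tested it was 0.04, 0.01, -0.03 and -0.01 in the same order. With only 6 genes and these shares, a count of 0 past 2-fold cannot be told from the background and is no result about the pathway.

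**Figure D1:**
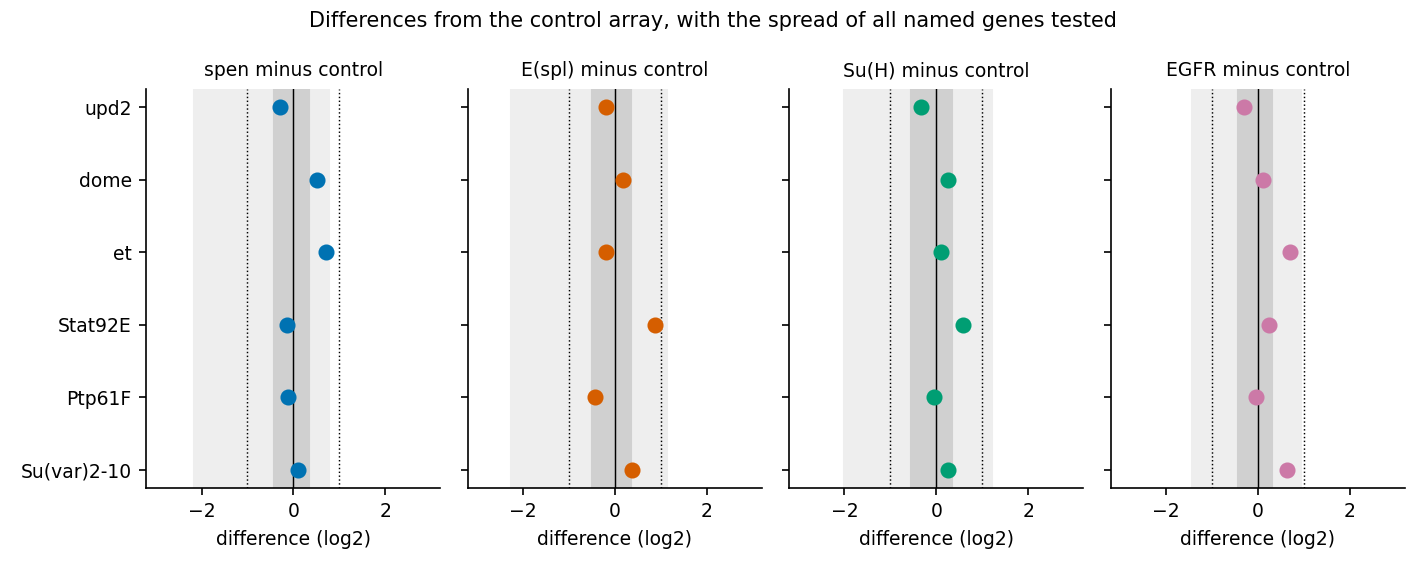
Difference from the control array on the log2 scale (x axis) for each of the 6 measured genes (y axis, mean of the probe sets of a gene), 1 panel per stock. The dark band spans the middle 50% and the light band the middle 90% of all named genes tested, and dotted lines mark 2-fold. Every point lies inside the dotted lines, and the points outside the dark band are dome and et in spen, Stat92E and Su(var)2-10 in E(spl), Stat92E in Su(H), and et and Su(var)2-10 in EGFR.

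The only other yardstick for single differences was the disagreement between probe sets of 1 gene. Its pooled SD over the 344 to 358 genes with several probe sets past the filter was 0.51 log2 units for spen against the control, 0.58 for E(spl), 0.62 for Su(H) and 0.58 for EGFR. It reflects probe behaviour and not animals. By this measure 5 of the 24 differences were wider than 1 SD, namely dome and et in spen, Stat92E in E(spl), and et and Su(var)2-10 in EGFR. The share of all genes tested that exceeded it was 36.7% (spen), 37.3% (E(spl)), 37.3% (Su(H)) and 31.8% (EGFR).

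upd2 encodes a secreted ligand, known in the fly as a leptin-like signal from the fat body. Its probe set (1623718_at) had a log2 level of 4.60 on the control array, 4.31 on spen, 4.41 on E(spl), 4.26 on Su(H) and 4.30 on EGFR. The control value was the highest of the 5, and all lay close to background. The probe set was above the highest Bacillus control on the control and E(spl) arrays, and not above it on the spen, Su(H) and EGFR arrays. The control level was 1.25-fold above the background limit of the Su(H) array and 1.14-fold above that of the EGFR array. It was below the limit of the spen array, so that no fold can be given there. The log2 differences from the control were -0.33 in Su(H) and -0.30 in EGFR, inside the probe set SD of 0.62 and 0.58. In these comparisons 57.8% and 57.6% of all genes tested differed by at least as much. In E(spl) the log2 difference was -0.18, and 74.1% of all genes tested differed from the control by at least as much. The 4 fat body markers also had their highest summed log2 level on the control array (47.6, against 36.4 on EGFR to 44.2 on spen). Lsp2, Fbp1 and apolpp each read highest on the control array. Fbp2 read highest on Su(H) (12.34, against 12.15 on the control array), where upd2 read lowest. The part of these markers in the upd2 values was not tested. Of the other ligands, upd1, the founding Unpaired ligand, was at 3.51 to 3.65 on the log2 scale and below the Bacillus limit on all 5 arrays. The upd2 value on the control array, 4.60, stood against a limit of 4.33 there.

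dome encodes the signal-transducing receptor of the pathway, related to vertebrate cytokine receptors, and is used as a marker of lymph gland progenitors. Its probe set (1632381_at) was at a log2 level of 6.91 on the control array, 7.43 on spen, 7.10 on E(spl), 7.18 on Su(H) and 7.02 on EGFR. All 4 stocks lay above the control, with spen the highest at 1.43-fold. This spen difference of 0.52 log2 units barely exceeded the probe set SD of 0.51, and 36.2% of all genes tested differed by at least as much. The differences in the other stocks were 0.18 (E(spl)), 0.26 (Su(H)) and 0.10 (EGFR), all inside that SD. Of the other progenitor and niche markers, Antp and kn were not above the Bacillus limit on any array. Tep4, a marker of lymph gland progenitors, had a log2 level of 13.18 on the control array, 12.61 (spen), 12.85 (E(spl)), 13.57 (Su(H)) and 13.64 (EGFR). It read lowest on the spen array, where dome read highest, with a log2 difference of -0.56 from the control.

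et (eye transformer, also called latran) encodes a shorter relative of Domeless that dampens signalling. In the Release 6 gene table et and dome are direct neighbours among protein-coding genes on the X chromosome. The et probe set (1636415_at) was at a log2 level of 7.45 on the control array, 8.15 on spen, 7.26 on E(spl), 7.54 on Su(H) and 8.14 on EGFR. The spen and EGFR arrays read highest, and Su(H) was within the probe set SD of both. Against the control, et was higher by 0.70 log2 units in spen and by 0.69 in EGFR, and 25.6% of all genes tested differed by at least that much in each of these comparisons. It differed by -0.19 in E(spl) and 0.09 in Su(H). Between stocks, et was 1.84-fold higher in EGFR than in E(spl) and 1.85-fold lower in E(spl) than in spen, while spen and EGFR differed by 0.01 log2 units. In EGFR dome was 0.10 log2 units above the control and et 0.69. The 3′ excess of the control genes exceeded the control value by 0.16 log2 units in spen and 0.33 in EGFR, and its part in the et values was not tested.

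**Figure D2:**
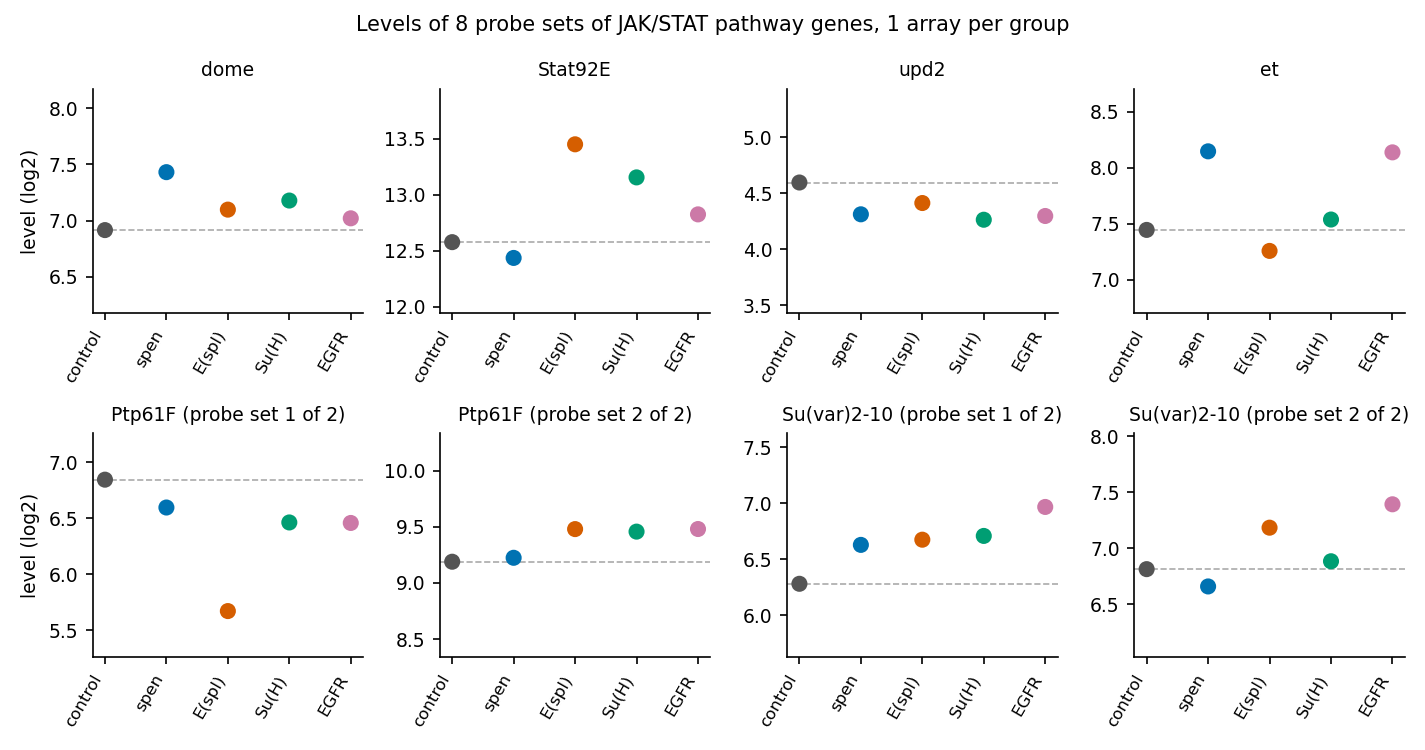
Log2 level (y axis) of each of the 8 probe sets on the 5 arrays (x axis), 1 point per array, with the dashed line at the control level. Each panel spans 2 log2 units, so distances compare between panels while absolute levels do not. et is high on spen and EGFR, Stat92E on E(spl) and Su(H), and the Ptp61F probe sets move in opposite directions.

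Stat92E is the pathway's transcription factor. Its probe set (1635827_s_at) had a log2 level of 12.58 on the control array, 12.44 on spen, 13.45 on E(spl), 13.15 on Su(H) and 12.82 on EGFR. The stocks labelled for Notch pathway genes were the highest, and spen was the lowest. Against the control, Stat92E differed by 0.87 log2 units (E(spl)), 0.58 (Su(H)), 0.25 (EGFR) and -0.14 (spen). The share of all genes tested that differed by at least as much was 25.2%, 39.3%, 63.8% and 77.4% in the same order. These comparisons share the control array.

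Between stocks, Stat92E was 2.02-fold higher in E(spl) than in spen, with a log2 difference of 1.01. This was the single value past 2-fold among 60 gene by pair values over all 10 pairs of arrays, counting those of upd2 that missed the level filter. In that pair 9.94% of 7740 genes tested were higher in E(spl) and 7.51% were lower by 2-fold. upd2 did not pass the level filter in any pair of stocks, which left 5 tested pathway genes there. In the other pairs of stocks, 0 of these 5 passed 2-fold. The shares of all genes tested that were higher and lower were 9.7% and 7.37% for Su(H) minus spen. For EGFR minus spen they were 12.0% and 7.45%. They were 3.78% and 2.73% for Su(H) minus E(spl), 7.96% and 4.98% for EGFR minus E(spl), and 5.74% and 5.35% for EGFR minus Su(H). Stat92E was also 1.65-fold higher in Su(H) than in spen and 1.54-fold lower in EGFR than in E(spl). Su(H) and E(spl) differed by 0.30 log2 units, under the SD of 0.47 between probe sets for that pair. The gap between arrays that were neighbours in the order of levels stayed under the probe set SD in all 24 such gaps over the 6 genes.

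The arrays with the highest Stat92E level were also those with the largest 3′ excess, 0.57 log2 units above the control in E(spl) and 1.02 in Su(H). Lamellocyte markers past 2-fold against the control numbered 4 of 6 in E(spl) and 4 of 6 in Su(H), with 3 of 6 in EGFR and 0 of 6 in spen. Muscle markers were higher by 2-fold in 3 of 3 tested genes in E(spl), 1 of 3 in EGFR (Mlc1) and 0 of 3 in spen. In Su(H) the same 3 genes as in E(spl) (Tm2, Mlc1 and up) were past 2-fold higher. Mlc2 was too, but it passed the level filter through the Su(H) array alone. The shares of all genes tested that were past 2-fold in each stock are those given above for the pathway genes. The 7 crystal cell markers had a summed log2 level of 75.9 on the control array, 66.8 (spen), 84.5 (E(spl)), 82.7 (Su(H)) and 83.1 (EGFR), so that this sum was also lowest on spen and highest on E(spl). The same 3 of these markers (lz, peb and CG7860) were past 2-fold higher than the control in each of E(spl), Su(H) and EGFR. CG17109 was 45.7-fold lower in spen than in the control and CG10469 2.74-fold lower, with no marker past 2-fold higher there. CG17109 was also lower in EGFR, with a log2 difference of -1.05 from the control. The lz probe set was not above the Bacillus limit on the control and spen arrays. For peb and CG10469 the order of the 5 arrays by level was that of Stat92E. For PPO1, PPO2, lz, CG17109 and CG7860 it was not, and CG7860 was 0.53 log2 units above the control in spen. The part of RNA quality or of other cell types in the Stat92E values was not tested.

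The genes with the pattern most like that of Stat92E were CG9452, Hmr and dmt, out of 9121 named probe sets that reached the level filter on some array. Likeness was the root mean square distance between log2 levels centred on their mean over the 5 arrays, which was 0.04 for CG9452, 0.04 for Hmr and 0.07 for dmt. Hmr (Hybrid male rescue, a heterochromatin-associated protein) differed from the control by 0.94 (E(spl)), 0.55 (Su(H)), 0.31 (EGFR) and -0.18 (spen) log2 units. dmt (dalmatian, a protector of sister chromatid cohesion) differed by 0.95, 0.76, 0.31 and -0.16 in the same order. CG9452 passed the filter on the E(spl) array alone, at a log2 level of 4.54, and lay near background elsewhere. With 5 points per pattern and 9121 candidates, close matches are easily found, and they are given as a description.

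**Figure D3:**
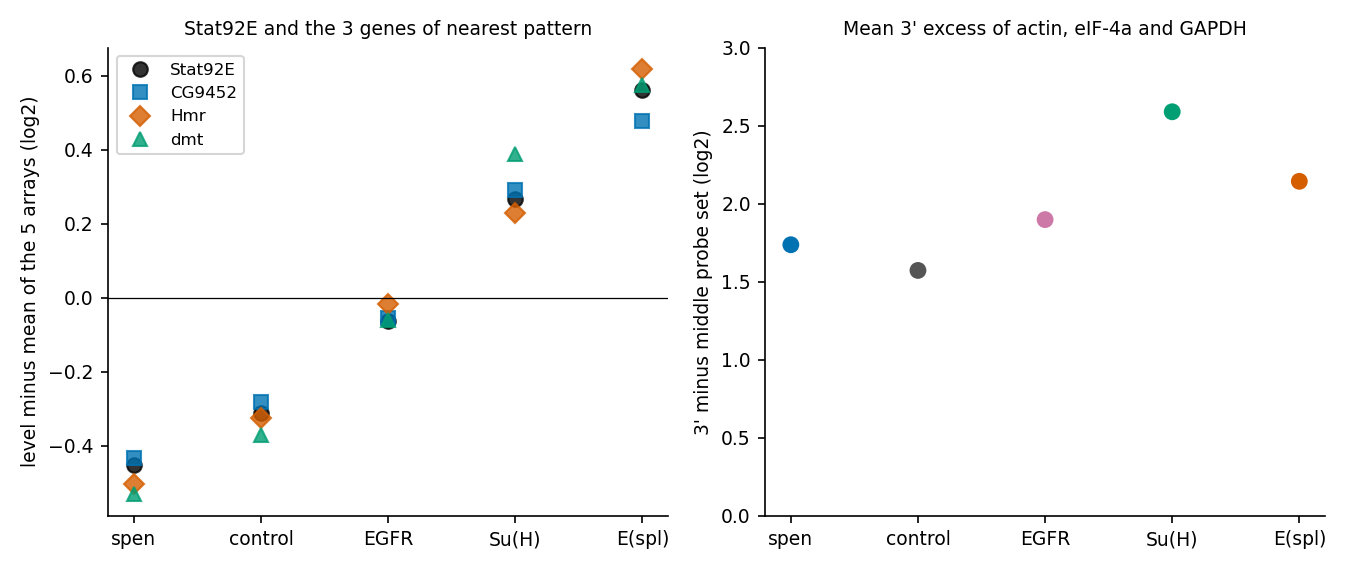
Left, log2 level minus its mean over the 5 arrays (y axis) for Stat92E and the 3 genes of nearest pattern, with arrays (x axis) ordered by Stat92E. Right, the log2 excess of 3′ over middle probe sets averaged over actin, eIF-4a and GAPDH on the same arrays, from 1.57 (control) to 2.59 (Su(H)). Stat92E is highest on E(spl) and the 3′ excess on Su(H).

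Ptp61F encodes a tyrosine phosphatase, the fly relative of PTP1B, that removes phosphate from pathway proteins. Release 6 lists 5 RefSeq transcripts for it, and 2 probe sets measured it. The first (1635729_a_at) was at a log2 level of 6.84 on the control array, 6.59 on spen, 5.67 on E(spl), 6.46 on Su(H) and 6.46 on EGFR. It was lowest on E(spl), 1.17 log2 units below the control, which was the single value past 2-fold among 32 probe set by stock values. Of the 8708 named probe sets tested in E(spl), 6.91% were higher and 15.2% lower by 2-fold. The shares of probe sets higher and lower were 3.12% and 14.4% for spen, 7.52% and 14.7% for Su(H), and 4.81% and 10.5% for EGFR. The second probe set (1638438_a_at) was at 9.19, 9.22, 9.48, 9.46 and 9.48 in the same order of arrays. It lay above the control in all 4 stocks, by 0.04 to 0.29 log2 units, where the first lay below it.

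The Ptp61F probe sets had opposite signs in all 4 stocks. These 4 comparisons share the control array, where the first probe set read highest and the second lowest. Among genes with several probe sets past the filter, 34.8% (E(spl)) to 39.5% (EGFR) had probe sets of opposite sign in a given stock. The share with opposite signs in all 4 stocks was not counted. The gap between both Ptp61F values was 1.46 log2 units in E(spl), and 11.5% of 356 such genes had a gap at least as large. In the other stocks it was 0.28 to 0.68. The gene-level mean, -0.44 log2 units in E(spl), is therefore an average over disagreeing probe sets. Which transcripts each probe set detects was not determined.

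Su(var)2-10 encodes the fly PIAS protein, a SUMO ligase that inhibits Stat92E. One of its 2 probe sets (1627362_a_at) was at a log2 level of 6.28 on the control array, 6.63 on spen, 6.67 on E(spl), 6.71 on Su(H) and 6.97 on EGFR. The other (1632783_a_at) was at 6.81, 6.66, 7.18, 6.88 and 7.39 in the same order. Both were highest on EGFR, by 0.69 and 0.58 log2 units over the control, and here the probe sets were 0.11 apart. Their mean put Su(var)2-10 at 1.55-fold above the control in EGFR, a size that 28.6% of all genes tested reached. In spen the probe sets differed in sign (0.35 and -0.15), and in E(spl) they differed from the control by 0.39 and 0.37.

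Of a list of 19 other components and modulators, 17 were named on the arrays and 15 passed the level filter in every comparison with the control, all but the ligand upd1 and the transcription factor slbo. In spen 0 of 15 were past 2-fold. In E(spl) 1 was higher and 0 were lower, in Su(H) 2 were higher and 1 was lower, and in EGFR 0 were past 2-fold. These counts stand beside the same background shares as above. The median log2 difference of the 15 genes was 0.02 (spen), 0.14 (E(spl)), 0.16 (Su(H)) and 0.35 (EGFR). Of these 15 genes, 14 lay above the control for EGFR, 12 for Su(H), 11 for E(spl) and 8 for spen. The median of all genes tested lay between -0.03 (Su(H)) and 0.04 (spen) log2 units. The share of all genes above the control was not counted, and all 4 comparisons share the control array. These counts are therefore a description only.

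ken encodes a zinc finger repressor related to BCL6 that represses a subset of Stat92E targets. It was at a log2 level of 7.13 on the control array, 6.62 on spen, 8.09 on E(spl), 8.38 on Su(H) and 8.03 on EGFR. It lay above the control in the last 3 stocks, by 0.96, 1.26 and 0.91 log2 units, and 0.50 below it in spen. apt (apontic), known to limit Stat92E signalling in the ovary, was at 5.31, 5.20, 6.51, 6.42 and 5.89. Its log2 difference from the control was 1.21 in E(spl) and 1.11 in Su(H).

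Stam and Hrs encode partners in the endosomal sorting of receptors, Domeless among them. Stam was at a log2 level of 9.64 on the control array, 9.66 on spen, 8.85 on E(spl), 8.39 on Su(H) and 9.83 on EGFR. Hrs was at 7.85, 8.58, 7.48, 7.27 and 7.99. Both had their lowest levels on Su(H) and next E(spl), the arrays with the largest 3′ excess. Stam differed from the control by -1.25 log2 units in Su(H) and -0.79 in E(spl), and Hrs by -0.58 and -0.37, while Hrs was 0.73 higher in spen.

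mask, whose protein was identified as a positive regulator of the fly pathway, differed from the control by 0.93 log2 units in EGFR and by -0.07 to 0.14 in the other stocks. Its 2 probe sets had the same sign in EGFR, at 0.76 and 1.11. Of the SOCS genes, Socs44A was 0.70 log2 units lower in EGFR and within 0.04 of the control in the other stocks. The Socs16D probe set with signal differed by 0.105 in spen and 0.56 in EGFR. The other was not above the Bacillus limit on any array, and the mean with it differed by 0.35 in spen and 0.31 in EGFR. The chromatin factor E(bx), the large NURF subunit, was 0.69 lower in spen and 0.64 higher in E(spl).

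**Figure D4:**
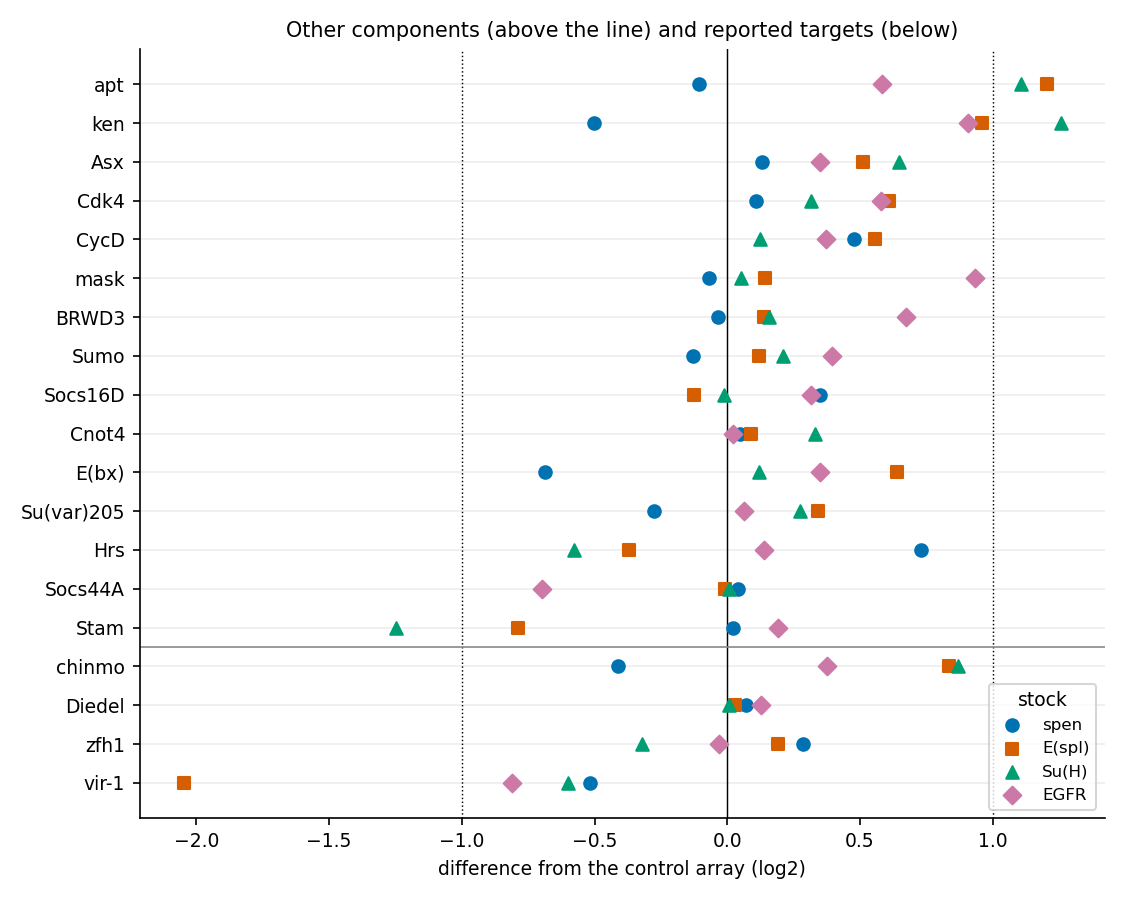
Difference from the control array on the log2 scale (x axis) for the 15 other components (above the line) and 4 reported targets (below) that passed the level filter, 1 marker per stock. Dotted lines mark 2-fold. apt and ken lie above 2-fold in Su(H), apt also in E(spl), Stam lies below it in Su(H), and vir-1 lies 2.05 below the control in E(spl).

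Reported targets of the pathway were mostly at background. Of 15 listed, 10 were named on the arrays and 4 passed the level filter. The stress-induced Turandot genes TotB, TotC, TotE and TotZ and the antibacterial gene Listericin did not exceed the Bacillus limit on any array, and TotF did so on E(spl) alone, at a log2 level of 4.34 against a limit of 4.33. Listericin was at a log2 level of 4.36 on spen and 3.31 to 3.62 on the others, but the spen limit was 4.78.

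The targets with signal did not move as a group. vir-1, induced by virus infection through the pathway, was at a log2 level of 13.06 on the control array, 12.54 on spen, 11.01 on E(spl), 12.46 on Su(H) and 12.25 on EGFR. It was below the control in all 4 stocks and 4.14-fold lower in E(spl), the stock with the highest Stat92E level. chinmo, a transcription factor gene downstream of Stat92E in the fly testis and eye, had 2 probe sets with signal. The brighter one was at 10.08 on the control array, 9.25 on spen, 11.49 on E(spl), 11.24 on Su(H) and 11.09 on EGFR. It differed from the control by -0.83, 1.41, 1.16 and 1.01 log2 units. The other differed by -0.40, 0.99, 0.93 and 0.09, so that both were low in spen and high in E(spl) and Su(H).

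The mean over all 3 chinmo probe sets, of which 1 lay at background, was 0.84 log2 units in E(spl) and 0.87 in Su(H), under the 2-fold limit. zfh1, a transcription factor gene acting with Stat92E in testis stem cells, stayed within 0.32 log2 units of the control, and the secreted immune regulator Diedel within 0.13, at a log2 level of 4.83 to 4.95 just above background. Over the 4 targets the median log2 difference was -0.17 (spen), 0.11 (E(spl)), -0.16 (Su(H)) and 0.05 (EGFR). By the mean of its probe sets, vir-1 in E(spl) was the single target past 2-fold in a comparison with the control.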

How the data were processed

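The authors deposited 1 table of log2 levels, 18952 probe sets by 5 arrays, with values from 2.54 to 14.74. The log2 scale was read from these values. The submitters' processing notes name RMA and GCOS, and their role, versions and settings are not given in the sources used here. RMA brings arrays to a common distribution and so would hide a change shared by most genes. The deposited levels of the 5 arrays did not share an exact distribution. Without control probe sets, their log2 medians ran from 4.46 (E(spl)) to 4.54 (control) and their lower quartiles from 3.55 (control) to 3.66 (spen). The 183 control probe sets served only for array quality, where 24 Bacillus probe sets gave the background limit. Genes were named from the platform annotation (1 gene for 13647 probe sets, several for 402, none for 4720). Not4 and smt3 were matched through synonyms to Cnot4 and Sumo. Coordinates of the Release 6 gene table served only to order protein-coding genes along the chromosomes. The array files do not name its build.

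Probe sets of a gene were averaged, and stocks were compared as differences of log2 levels (python 3.11.15, pandas 2.3.3, numpy 2.4.6). Scripts were tested on simulated data. The number of arrays limits the precision. Named were all members, the 4 genes of each other list with the largest difference in any stock, and the 3 genes of nearest pattern to any member spanning at least 1 log2 unit. Hrs, Socs44A, Socs16D, E(bx), upd1, Listericin and the Turandot genes were chosen after their values were seen. Members, lists and settings were chosen with earlier results of these data known. Protein and promoter sequences were not used here.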

Additional observations from a re-analysis of the deposited data

How the results depend on the processing

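The counts of pathway genes past 2-fold, their median and the single differences were recomputed under 9 other settings. Of 72 counts, 69 stayed at 0. At 1.5-fold, 1 gene was higher in spen, 1 in E(spl) and 2 in EGFR. Without probe sets ending in _s_at, _x_at or _a_at, the spen median was 0.52 over the 3 genes left (dome, upd2 and et). Stat92E, Ptp61F and Su(var)2-10 have only such probe sets, so their values could not be checked under this setting. The other 27 recomputed medians moved by less than the probe set SD. Of 148 recomputed single differences, 146 did so too. The exceptions were Ptp61F in E(spl), at 0.29 by its brightest probe set alone, and Stat92E in spen, at -0.71 against the mean of the other 3 stocks. Under renewed quantile scaling the Ptp61F difference turned from -0.11 to 0.06 in spen and from -0.06 to 0.03 in Su(H). In EGFR it turned from -0.05 to 0.02, and all these values were near 0. The apt difference in spen turned from -0.11 to 0.29. Under the same scaling the spen median went from -0.01 to 0.30 and dome in spen from 0.52 to 0.84. Su(var)2-10 went from 0.10 to 0.54 in spen and from 0.38 to 0.68 in E(spl), and Stat92E in Su(H) from 0.58 to 0.64. The Su(var)2-10 and Stat92E values then exceeded the probe set SD of the deposited levels (0.51, 0.58 and 0.62). Which differences are wider than 1 SD therefore depends on the scaling. The difference of Stat92E between E(spl) and spen was 1.03 to 1.09 under 2 scalings added after seeing the data. No paired analysis was possible because each group had 1 array. With 1 array per group, spread between animals, stocks' backgrounds and array effects cannot be told apart from genotype.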
